A study of Mus musculus with 21 samples.

Results

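Innate pattern and Fc receptors are the surface and endosomal proteins through which leukocytes sense microbes, dying cells and antibody-coated particles. The genes were taken by symbol from the expression table of sorted mouse spleen cells, as all Toll-like receptors (Tlr), C-type lectins (Clec), Fc gamma receptors (Fcgr), Siglecs, CD300 receptors (Cd300) and leukocyte and paired immunoglobulin-like receptors (Lilr, Pira, Pirb), leaving out Clec4f and Siglec1. This gave 60 of the 14273 listed genes, namely 25 C-type lectins, 12 Toll-like receptors, 7 CD300 receptors, 6 LILR and PIR receptors, 5 genes with an Fcgr symbol and 5 Siglecs. RNA sequencing covered 21 libraries of spleen cells of strain C57BL/6, 3 for each of 7 groups. Ter119+CD71+ cells, which carry an erythroid surface antigen and the transferrin receptor, were sorted as CD45+ or CD45- from spleens of 3 statuses (tumor-bearing, anemia and neonatal), which makes 6 groups. The remaining group was myeloid-derived suppressor cells (MDSC), sorted as CD11b+Gr1+ from spleens of tumor-bearing mice. The labels name no tumor line, cause of anemia or age, their extraction text speaks of retinas while the tissue is given as spleen, and whether the 3 libraries per group are separate animals is not stated, so p-values measure only how far these libraries spread, and that spread may be technical.

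Toll-like receptors bind microbial lipids, proteins or nucleic acids, some at the cell surface and others in endosomes, and signal through adaptors such as MyD88. Activating C-type lectins, Fc receptors, CD300 and LILR family members signal through an immunoreceptor tyrosine-based activation motif (ITAM), usually on the partner chains FcR gamma (Fcer1g) or DAP12 (Tyrobp), to the kinase Syk. Inhibitory members carry an inhibitory motif (ITIM) that recruits phosphatases such as SHP-1 (Ptpn6), and many families hold an activating and an inhibitory receptor side by side in the genome. In spleen these receptors are known mainly from neutrophils, monocytes, macrophages, dendritic cells and B cells.

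Levels are given after undoing the log2 of the deposited table, on a scale named in none of the sources used here. They are compared between libraries for the same gene and not between genes. Where 3 values follow each other, they are replicates 1, 2 and 3 of a group. Read depth is unknown, so the spread between libraries carries all of the error. Values summed to between 227961 and 349261 per library, and libraries of 1 group correlated at 0.867 to 0.974 over genes, which are not independent replicates.

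The sort labels were checked against marker genes. The summed level of 5 erythroid genes (Klf1, Gata1, Tfrc, Slc4a1, Epor) was 2089 to 4336 in the 9 CD45- libraries, 109 to 779 in the 9 CD45+ libraries and 49.6 to 82.3 in MDSC, and all 5 genes were lower on the CD45+ side in each status. Neutrophil and MDSC genes (8 of 8 in the table, none at 0 in a whole group) summed to 26144, 27052 and 10296 in tumor, 753, 422 and 2552 in anemia and 11076, 9517 and 8840.4 in neonatal CD45+ cells, and to 41012, 52260.5 and 64083 in MDSC. B cell genes (6 of 6 in the table, none at 0 in a whole group) summed to 103, 137 and 444 in tumor, 629, 776 and 676 in anemia and 121, 89.2 and 299 in neonatal CD45+ cells. Tissue macrophage genes (7 of 7, none at 0 in a whole group) summed to 134, 100.3 and 789 in tumor, 98.6, 129.6 and 96.2 in anemia and 805, 753 and 1382 in neonatal CD45+ cells. The libraries labelled erythroid and CD45+ thus also held transcripts of neutrophil, B cell and macrophage marker genes. Their amounts differed between the statuses and, for replicate 3 of each CD45+ group, between libraries of a group. Which cells made these transcripts was not tested. In such sorted populations, fewer cells of a type and less RNA per cell cannot be told apart.

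**Figure D1:**
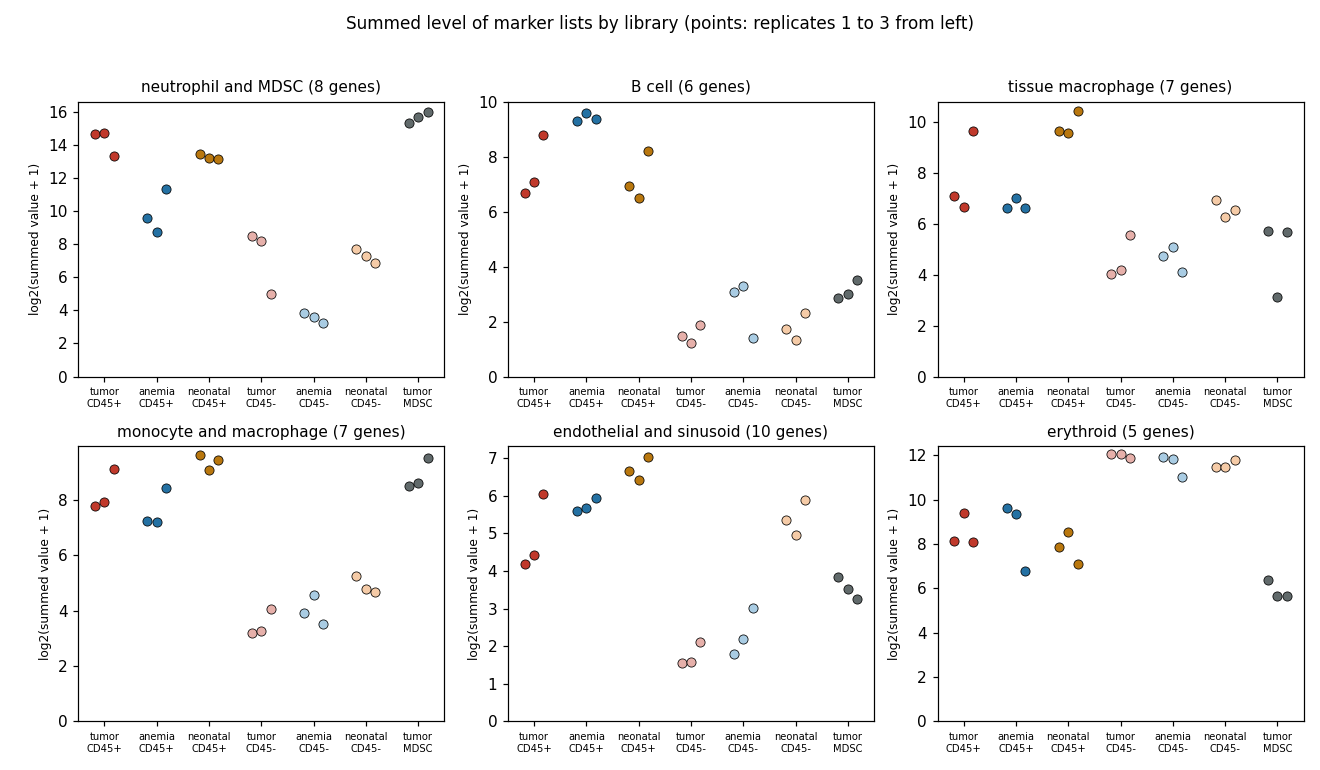
Summed level of 6 marker lists by library, as log2(summed value + 1), with replicates 1 to 3 from left in each of the 7 groups; the endothelial list was added after the data were seen. Neutrophil genes are lowest among CD45+ cells in anemia, and B cell genes are highest there. Tissue macrophage genes are highest in the neonatal CD45+ libraries and in replicate 3 of the tumor CD45+ group.

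For the receptor genes replicate 3 of each CD45+ group stood apart. Replicate 3 of the anemia CD45+ group held the highest level of its group for 44 of the 60 genes, and the receptors made up 0.755% of its summed values against 0.152% and 0.174% in replicates 1 and 2. Its erythroid sum was also the lowest of its group and its neutrophil sum the highest. Replicate 3 of the neonatal CD45+ group was the highest for 47 genes, and the receptors made up 0.500% of its summed values against 0.292% and 0.199%. Replicate 3 of the tumor CD45+ group was the highest for 38 genes and the lowest for 12, with a share of 0.445% against 0.296% and 0.396%. In both of these libraries the tissue macrophage and B cell sums were the highest of their group. Replicate 3 of the tumor CD45- group was the highest for 41 genes. Calls that ended without 1 of the 3 CD45+ libraries are named below with their values.

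Of the genes, 19 lie on chromosome 6, 10 on chromosome 7 and 8 on chromosome 11. In the RefSeq gene order of GRCm38.p6, 9 Clec4 genes follow each other without another protein-coding gene between them (Clec4a1, Clec4a3, Clec4a4, Clec4b1, Clec4a2, Clec4b2, Clec4n, Clec4d and Clec4e). So do Clec1b, Clec9a, Clec1a and Clec7a, Fcgr2b, Fcgr4 and Fcgr3, and the pairs Lilr4b and Lilrb4a, Siglecf and Siglecg, Tlr1 and Tlr6, and Tlr7 and Tlr8. RefSeq promoter windows were at hand for 49 of the 60 genes. In the 250 bases before the start, the letters GAGGAA on either strand (TTCCTC on the other), the core that the myeloid and B cell factor PU.1 prefers, were present in 29 of these 49 genes (59.18%), against 23.13% of 27025 windows of the same length. The letters TTGCNNAA (TTNNGCAA on the other strand), the palindromic outline of a C/EBP element, were present in 12 of 49 (24.49%) against 9.55%. Overlaps between the 2 motifs were allowed, and a match is a description of letters, not of a bound site. Windows are printed for 4 receptors whose differences between tumor, anemia or MDSC samples passed below, and for Clec1b, which was highest in neonatal cells and has neither motif. They lie at chr6:129349994-129350243 on the plus strand (Clec12a), chr6:40585806-40586055 on the minus strand (Clec5a), chr7:43660162-43660411 on the minus strand (Siglece), chr7:3720383-3720632 on the minus strand (Pirb) and chr6:129397047-129397296 on the plus strand (Clec1b), all on GRCm38.p6 and read 5′ to 3′ on the gene's strand. Capitals mark GAGGAA or TTCCTC.
Clec12a: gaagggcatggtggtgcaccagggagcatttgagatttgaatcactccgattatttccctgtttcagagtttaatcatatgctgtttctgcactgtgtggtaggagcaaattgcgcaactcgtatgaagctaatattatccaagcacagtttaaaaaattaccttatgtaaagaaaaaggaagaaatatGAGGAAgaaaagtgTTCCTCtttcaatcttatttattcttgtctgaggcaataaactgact
Clec5a: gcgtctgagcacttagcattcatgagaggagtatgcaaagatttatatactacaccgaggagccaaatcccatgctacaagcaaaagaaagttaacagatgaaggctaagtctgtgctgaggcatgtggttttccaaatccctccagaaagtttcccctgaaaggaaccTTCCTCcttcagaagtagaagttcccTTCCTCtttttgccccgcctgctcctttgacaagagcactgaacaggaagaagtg
Siglece: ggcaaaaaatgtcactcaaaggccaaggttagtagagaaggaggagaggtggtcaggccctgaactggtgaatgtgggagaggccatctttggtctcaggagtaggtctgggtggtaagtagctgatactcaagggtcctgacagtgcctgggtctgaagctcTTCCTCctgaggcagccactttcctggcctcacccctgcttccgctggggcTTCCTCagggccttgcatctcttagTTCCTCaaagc
Pirb: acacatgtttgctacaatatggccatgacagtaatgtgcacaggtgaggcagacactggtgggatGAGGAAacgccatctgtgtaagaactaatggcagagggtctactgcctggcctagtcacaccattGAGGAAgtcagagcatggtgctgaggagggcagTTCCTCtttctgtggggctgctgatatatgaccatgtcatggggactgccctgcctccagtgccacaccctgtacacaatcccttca
Clec1b: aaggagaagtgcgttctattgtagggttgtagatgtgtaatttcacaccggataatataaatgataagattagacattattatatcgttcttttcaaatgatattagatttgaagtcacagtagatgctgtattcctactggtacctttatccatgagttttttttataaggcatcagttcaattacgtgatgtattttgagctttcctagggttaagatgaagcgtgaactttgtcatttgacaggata
Clec12a and Clec5a hold the PU.1 letters at 2 places and Siglece and Pirb at 3. The printed windows are examples. Of the other receptors higher in tumor than in anemia CD45+ cells below, Clec4a2 holds none and Cd300lf, Fcgr3, Clec4b2 and Siglecf hold 1. Of those higher in neonatal than in tumor CD45+ cells, Fcgr1 and Lilra5 hold 1 and Fcgrt, like Clec1b, holds none.

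Receptor transcripts were found mainly in the CD45+ and MDSC libraries. The 60 genes made up 0.379% ± 0.0759, 0.360% ± 0.342 and 0.330% ± 0.154 of the summed values in CD45+ cells of tumor, anemia and neonatal samples (SD, n = 3) and 0.629% ± 0.213 in MDSC. In the matching CD45- cells the share was 0.00715% ± 0.00397, 0.00907% ± 0.00206 and 0.0191% ± 0.00853. The groups did not overlap, since the lowest CD45+ library stood at 0.152% and the highest CD45- library at 0.0282%. For 37 genes every CD45- library was below 1, for 32 every CD45+ library was at least 1, and for 37 every CD45+ library lay above every CD45- library. By group mean, 21 genes were highest in MDSC, 17 in anemia CD45+, 17 in neonatal CD45+, 2 in tumor CD45+ and 3 in neonatal CD45- cells.

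**Figure D2:**
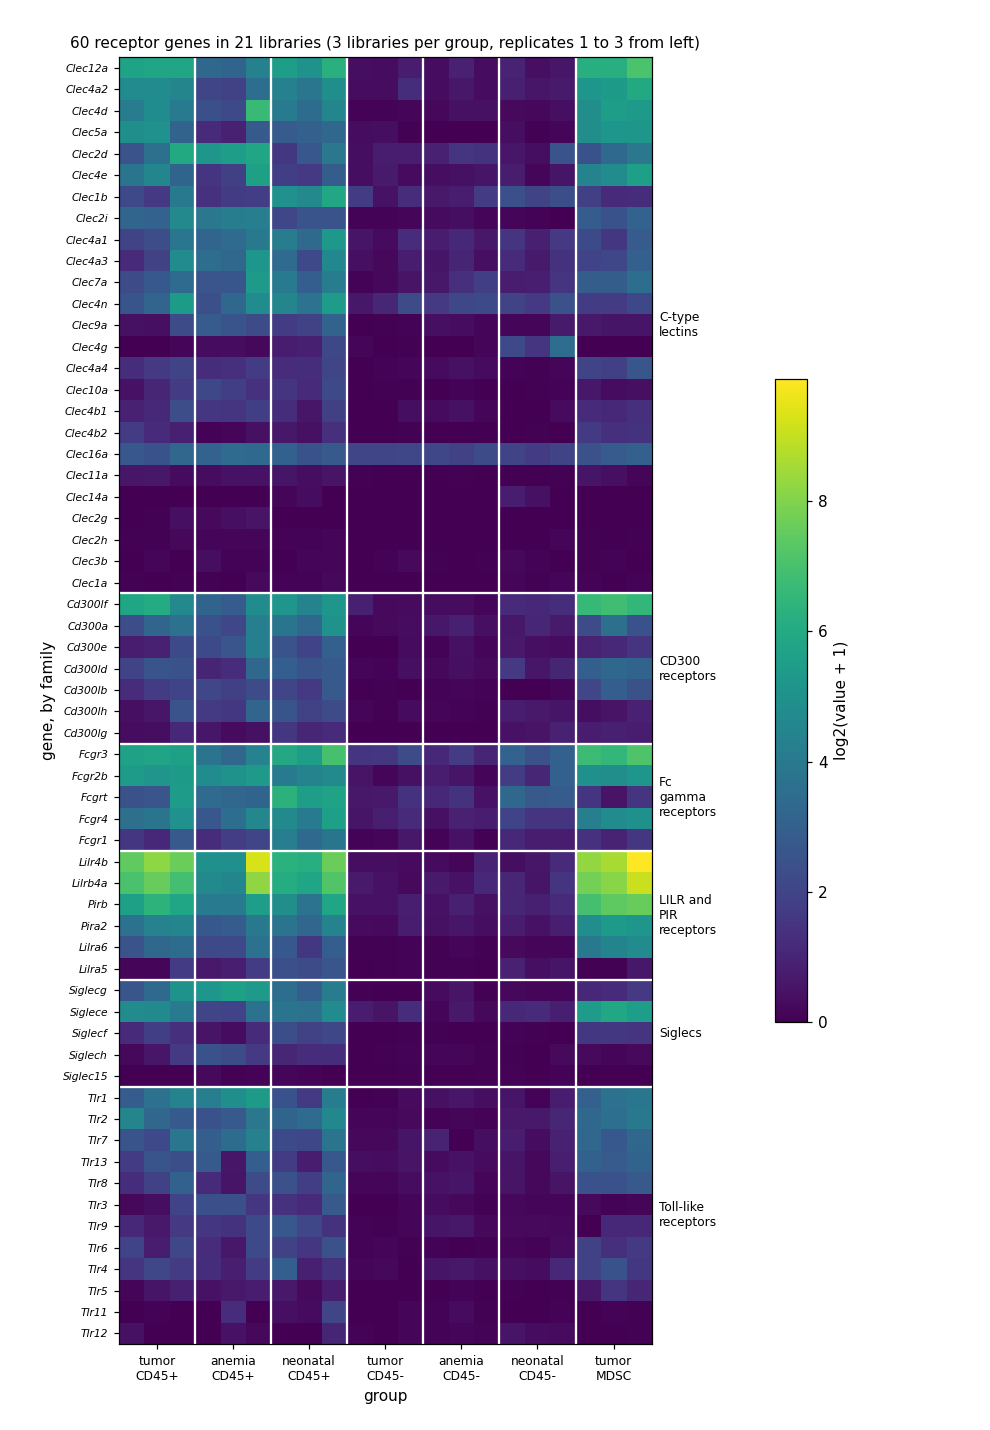
Level of each of the 60 receptor genes as log2(value + 1) in the 21 libraries, grouped by family, with replicates 1 to 3 from left in each group. The 9 CD45- libraries are dark for most genes, with Clec16a, Fcgr3 and Clec4n, and in the neonatal group Fcgrt, Clec1b and Clec4g, among those that stand out.

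Of the 60 genes, 50 reached a value of 1 in at least 3 of the 18 Ter119+CD71+ libraries and were tested in a limma fit over 11195 genes, with Benjamini-Hochberg adjustment over all of them. In tumor-bearing mice 46 of the 50 were higher and 0 lower in CD45+ than in CD45- cells, where 50.2% of all tested genes were higher and 10.9% lower. In anemia 43 were higher and 0 lower (47.4% and 11.3% of all genes), and in neonates 47 were higher and 1 lower (49.6% and 10.3%). At an unadjusted p below 0.05, 47, 46 and 50 passed in either direction. Libraries of the 2 sorts did not overlap for 48, 49 and 46 receptors, all higher in CD45+ cells, against 53.8%, 50.4% and 55.9% of all genes. The median log2 fold change of the 50 genes was 2.28, 2.25 and 2.27, against 0.75, 0.68 and 0.75 over all tested genes. Since a gene that passed the low-value filter only through its CD45+ libraries had to differ, these counts are a description. The same holds for the CD45 p-values given below for genes under 1 in every CD45- library, such as Clec12a and Siglecg. 38 genes were higher in all 3 statuses and 49 in at least 1. The call was kept without any 1 library for 39 of the 46 genes in tumor-bearing mice, 41 of 43 in anemia and 43 of 48 in neonates. Tumor CD45+ replicate 3 ended the tumor calls of Cd300e (adjusted p = 0.0675 to 0.16, also without tumor CD45- replicate 1 or 2), Siglech (0.0543 to 0.155, likewise), Clec1b (0.0877 to 0.127, also without tumor CD45- replicate 2), Cd300lg (0.092) and Clec4a3 (0.128). It also ended that of Clec9a, which was lost without any of 14 of the 18 libraries (0.0501 to 0.337), and that of Clec16a, described below. Anemia CD45+ replicate 3 ended the anemia calls of Siglecf (0.107) and Lilra5 (0.0979), and neonatal CD45+ replicate 3 the neonatal call of Clec4a3 (0.0759). The neonatal call of Cd300lg ended without neonatal CD45+ replicate 1 or neonatal CD45- replicate 1 or 2 (0.0512 to 0.0806). With the replicate number as a block, Cd300lh also passed in tumor-bearing mice (limma adjusted p = 0.04), Clec4n and Tlr8 in anemia (0.00496 and 0.0342) and Clec2d in neonates (0.0132), and 0 calls were lost. Scaling by median ratios lowered the median of all genes to 0.06, 0.04 and 0.06 and left 41, 42 and 42 receptors higher against 32.4%, 29.8% and 30.0% of all genes, and quantile normalization left 26, 25 and 33 against 23.4%, 23.6% and 23.8% of all genes. Under quantile normalization, which moved the median of all genes to -0.08, -0.07 and -0.02, Clec4a4 in anemia (-0.03) and Cd300lg in neonates (-0.32) turned negative, as did Clec16a in tumor-bearing mice and neonates.

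**Figure D3:**
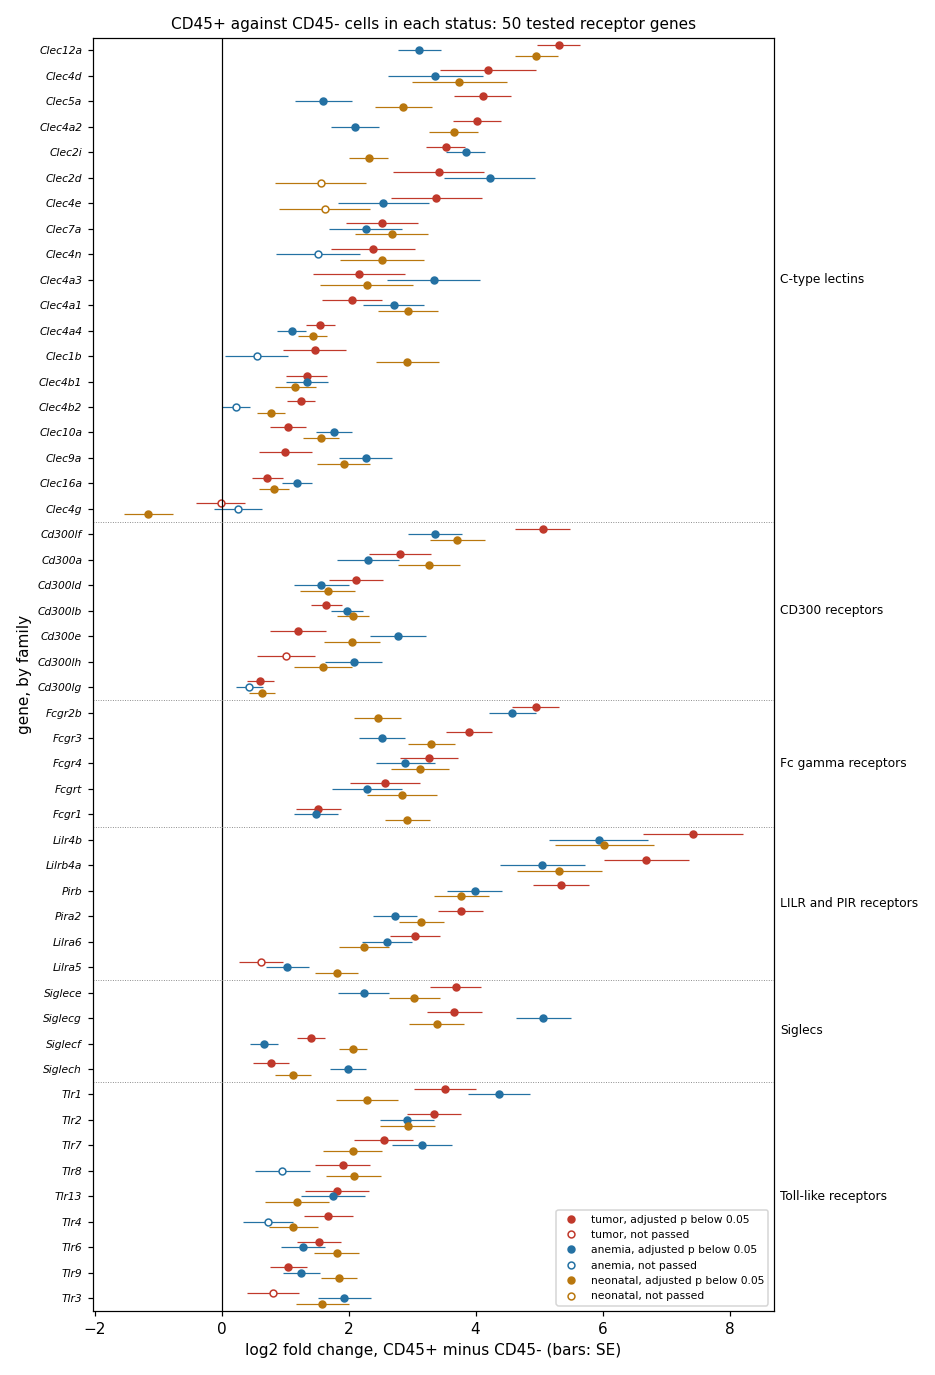
Log2 fold change of CD45+ over CD45- cells for the 50 tested receptor genes by family, with bars for the SE of the limma fit, in tumor-bearing mice, anemia and neonates; filled points passed an adjusted p below 0.05. Every gene but Clec4g lies to the right of 0 in all 3 statuses, and Lilr4b reaches 7.42 in tumor-bearing mice.

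Of the LILR and PIR receptors, the neighbours Lilr4b and Lilrb4a had the largest CD45 differences of all tested receptors in tumor-bearing mice. Lilrb4a encodes gp49B, an inhibitory receptor with ITIMs, and Lilr4b its neighbour and near-copy gp49A. Lilr4b stood at 174, 288 and 201 in tumor, 29.9, 30.1 and 623 in anemia and 77.4, 74.9 and 199.6 in neonatal CD45+ libraries. It was 0.086 to 1.25 over the 9 CD45- libraries and 308, 384 and 937 in MDSC. No CD45+ library overlapped with a CD45- library, and replicate 3 of the anemia group lay within the MDSC range while the group's other libraries were the lowest of all CD45+ cells. Lilr4b rose by 7.42 ± 0.78, 5.94 ± 0.78 and 6.03 ± 0.78 log2 units (SE) in CD45+ over CD45- cells in tumor, anemia and neonatal samples (limma adjusted p = 4.6e-07, 6.2e-06 and 5.9e-06). Lilrb4a had a like pattern, with 129, 191 and 120.0 in tumor, 24.7, 22.2 and 298 in anemia and 68.3, 54.7 and 143 in neonatal CD45+ cells. Its CD45- libraries held 0.198 to 1.85 and its MDSC libraries 221, 273 and 538. The log2 fold changes were 6.69 ± 0.67, 5.05 ± 0.67 and 5.32 ± 0.67 (SE, limma adjusted p = 2.4e-07, 6.6e-06 and 4.2e-06). In 50-base windows of their GENCODE transcripts, 22.89% of Lilr4b was identical to Lilrb4a and 27.78% of Lilrb4a to Lilr4b, and 100% of Lilrb4a also lay in the gene model Gm49339, so reads could have been split or shared between them, and the separate levels are uncertain.

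Pirb is an inhibitory receptor for MHC class I, and Pira2 and Lilra6 are activating members of the same cluster that signal through FcR gamma. Pirb stood at 47.3, 82.3 and 56.3 in tumor, 16.1, 16.2 and 45.7 in anemia and 28.3, 12.6 and 55.7 in neonatal CD45+ cells, at 0.369 to 1.32 in CD45- cells and at 125, 169 and 188 in MDSC. All MDSC libraries lay above all CD45+ libraries, and all CD45+ above all CD45- libraries. Pirb rose by 5.35 ± 0.44, 3.99 ± 0.44 and 3.77 ± 0.44 log2 units (SE) between CD45- and CD45+ cells (limma adjusted p = 1.9e-08, 6.8e-07 and 1.5e-06). Pira2 was 11.8, 19.8 and 21.5 in tumor, 5.59, 6.27 and 15.1 in anemia and 12.9, 8.46 and 20.5 in neonatal CD45+ cells against 0.177 to 0.762 in CD45- and 27.7, 40.6 and 35.8 in MDSC libraries. Lilra6 was 4.81, 9.18 and 10.3 in tumor, 3.5, 3.57 and 12.3 in anemia and 5.58, 2.01 and 6.83 in neonatal CD45+ cells, at most 0.197 in a CD45- library and 14.8, 20.9 and 26.5 in MDSC. These 3 genes share 50-base windows with each other and with unnamed copies (37.27% of Pirb, 93.96% of Pira2 and 28.45% of Lilra6), and their levels are uncertain to that extent. Lilra5, an activating receptor, differed from the others: it was 4.31, 3.93 and 5.08 in neonatal CD45+ libraries, 0.0959, 0.121 and 2.31 in tumor and 0.58, 0.783 and 2.28 in anemia CD45+ libraries, and 0.0487, 0.0276 and 0.54 in MDSC.

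Among Fc receptors, all 5 genes passed as higher in the CD45+ cells of each status. Fcgr3, an activating low-affinity IgG receptor, stood at 48.6, 53.3 and 47.5 in tumor, 12.9, 8.45 and 19.9 in anemia and 61.3, 44.9 and 125 in neonatal CD45+ cells. It was 1.79, 2.01 and 3.74 in tumor, 1.15, 2.28 and 1.03 in anemia and 7.53, 4.39 and 7.16 in neonatal CD45- cells and 109, 90.9 and 139.8 in MDSC. The anemia CD45+ libraries were thus the lowest of the CD45+ libraries without overlap. Fcgr2b, the inhibitory IgG receptor of B cells and myeloid cells, went another way, with 43.5, 34.1 and 40.5 in tumor, 27.1, 32.3 and 40.00 in anemia and 16.4, 20.2 and 24.2 in neonatal CD45+ cells. Its CD45- libraries held 0.445, 0.124 and 0.37 in tumor, 0.75, 0.462 and 0.106 in anemia and 2.29, 1.06 and 7.25 in neonatal samples, and MDSC held 29.8, 28.4 and 35.7. Fcgr2b rose by 4.94 ± 0.37, 4.58 ± 0.37 and 2.46 ± 0.37 log2 units (SE) in CD45+ over CD45- cells (limma adjusted p = 7.3e-09, 2.1e-08 and 2.7e-05), with the neonatal CD45- libraries above the other CD45- libraries and the neonatal CD45+ libraries below the other CD45+ libraries. Of the Fcgr3 transcript, 12.79% of 50-base windows were shared with Fcgr2b.

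Fcgr4, an activating receptor of neutrophils and monocytes, was 11.4, 12.8 and 30.8 in tumor, 5.33, 10.9 and 22.8 in anemia and 25.4, 15.6 and 47.2 in neonatal CD45+ cells, against 0.378 to 2.98 in CD45- and 17.7, 25.8 and 29.8 in MDSC libraries, and its CD45+ groups overlapped. Fcgr1, the high-affinity IgG receptor of macrophages, stood at 17.6, 9.34 and 13.3 in neonatal CD45+ cells, 1.95, 1.2 and 5.84 in tumor and 1.4, 2.46 and 3.18 in anemia CD45+ cells, and 1.65, 0.917 and 1.97 in MDSC. Fcgrt encodes the neonatal Fc receptor, an MHC class I-like protein that rescues IgG and albumin from breakdown and differs in structure from the other Fc gamma receptors. Fcgrt was 80.5, 44.9 and 49.9 in neonatal, 4.49, 5.06 and 41.2 in tumor and 9.93, 8.65 and 8.05 in anemia CD45+ libraries, 9.2, 5.85 and 6.34 in neonatal CD45- libraries, 0.403 to 1.71 in the other CD45- libraries and 1.88, 0.433 and 1.83 in MDSC. For both genes every neonatal CD45+ library lay above every library of the other groups, with replicate 3 of the tumor group close below for Fcgrt.

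Siglecs bind sialic acid, and most dampen the cell that carries them. Siglece, an inhibitory Siglec of neutrophils and macrophages, was 26.5, 25.2 and 16.4 in tumor, 3.14, 2.95 and 11.7 in anemia and 12.8, 12.1 and 26.1 in neonatal CD45+ cells, 0.086 to 1.42 in CD45- cells and 42, 57.2 and 44.4 in MDSC. Siglecg, an inhibitory Siglec of B cells, was 5.26, 9.37 and 32.4 in tumor, 35.3, 47.5 and 38 in anemia and 10.9, 6.65 and 16.5 in neonatal CD45+ cells, 0 to 0.43 in CD45- cells and 1.2, 1.34 and 2.15 in MDSC. The 2 Siglecs ran opposite ways between tumor and anemia CD45+ cells, with Siglece lowest and Siglecg highest in anemia. Siglecg rose from CD45- to CD45+ cells by 3.67 ± 0.43, 5.06 ± 0.43 and 3.39 ± 0.43 log2 units (SE, limma adjusted p = 1.6e-06, 3.8e-08 and 4.5e-06). Siglecf, known from eosinophils, was 1.24, 2.52 and 1.49 in tumor, 0.417, 0.263 and 1.3 in anemia and 4.18, 2.8 and 3.26 in neonatal CD45+ cells and 2.02, 2.01 and 1.82 in MDSC. Siglech, a marker of plasmacytoid dendritic cells, was 0.152, 0.524 and 2.12 in tumor, 4.56, 3.75 and 2.09 in anemia and 1.1, 1.41 and 1.47 in neonatal CD45+ cells and 0.0999 to 0.186 in MDSC. Siglec15 stayed at or below 0.183 in every library and was not tested.

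Of the CD300 receptors, several of which bind phospholipids of dying cells, Cd300lf, an inhibitory member, had the widest range. Cd300lf stood at 56.4, 66.1 and 24.4 in tumor, 8.19, 6.37 and 26.8 in anemia and 34.9, 20.6 and 35.6 in neonatal CD45+ cells, 0.0976 to 1.43 in CD45- cells and 97.3, 114 and 91.5 in MDSC. All MDSC libraries were above all others, and replicate 3 of the tumor and of the anemia CD45+ group lay close to each other. The inhibitory Cd300a was 3.98, 8.29 and 11.7 in tumor, 4.67, 3.26 and 17.7 in anemia and 13.3, 8.88 and 32.4 in neonatal CD45+ cells, 0.135 to 1.09 in CD45- cells and 3.8, 11.6 and 4.63 in MDSC, and its groups other than CD45- overlapped. The activating Cd300e was 0.716, 0.86 and 3.62 in tumor, 3.61, 5.05 and 18 in anemia and 4.75, 2.98 and 7.17 in neonatal CD45+ cells, 0 to 0.583 in CD45- cells and 0.972, 1.12 and 1.78 in MDSC. Its highest library was replicate 3 of the anemia group. Cd300ld was 3.03, 4.86 and 4.46 in tumor, 1.04, 1.37 and 8.97 in anemia and 6.78, 4.94 and 5.77 in neonatal CD45+ cells, 0.0562 to 2.08 in CD45- cells and 6.72, 8.78 and 7.75 in MDSC. In the CD45 comparison Cd300lh missed the threshold in tumor-bearing mice (1.01 ± 0.45 log2 units, SE, limma adjusted p = 0.062) and Cd300lg, known from endothelium, missed it in anemia (0.44 ± 0.21, SE, adjusted p = 0.078).

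Clec12a, an inhibitory C-type lectin that binds uric acid crystals, was 52.2, 55.1 and 56.2 in tumor, 9.23, 8.04 and 19.5 in anemia and 44.5, 31.4 and 76.2 in neonatal CD45+ cells, 0.246 to 0.924 in CD45- cells and 72.2, 71.2 and 135 in MDSC. The tumor CD45+ libraries lay within a narrow range, and the anemia libraries lay below every other CD45+ library. Clec12a rose by 5.31 ± 0.34, 3.11 ± 0.34 and 4.96 ± 0.34 log2 units (SE) in CD45+ over CD45- cells (limma adjusted p = 1.1e-09, 6.3e-07 and 4.8e-09). The inhibitory Clec4a2 (DCIR) had 25.9, 26.2 and 21.7 in tumor, 3.13, 2.84 and 10.9 in anemia and 19.1, 13.9 and 29 in neonatal CD45+ cells, 0.239 to 1.47 in CD45- cells and 35.6, 40.3 and 62.1 in MDSC. The activating Clec5a, which pairs with DAP12, had 29.1, 31.2 and 7.95 in tumor, 1.24, 0.867 and 5.87 in anemia and 6.12, 7.16 and 8.8 in neonatal CD45+ cells, 0 to 0.301 in CD45- cells and 28.5, 35.5 and 36.7 in MDSC. Replicates 1 and 2 of the tumor CD45+ group reached the MDSC range for Clec5a, and replicate 3 fell among the neonatal libraries.

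Receptors for fungal and mycobacterial glycans varied between libraries of a group. Clec4d and Clec4e (Mincle) bind mycobacterial glycolipids. Clec4d was 16.7, 26.7 and 15.3 in tumor, 4.27, 3.5 and 98.7 in anemia and 15.7, 10.2 and 22.1 in neonatal CD45+ cells, 0.0558 to 0.377 in CD45- cells and 28.1, 44 and 38.5 in MDSC. Clec4e was 13, 22 and 8.04 in tumor, 1.91, 2.68 and 47.6 in anemia and 2.51, 2.1 and 6.53 in neonatal CD45+ cells and 20.1, 25.9 and 46.3 in MDSC. Replicate 3 of the anemia group was thus the highest of all 21 libraries for these adjacent genes, and its other libraries were among the lowest of CD45+ cells. Clec7a (Dectin-1), the beta-glucan receptor, was 3.73, 5.66 and 9.86 in tumor, 5.14, 5.22 and 39.7 in anemia and 15.4, 6.8 and 16.9 in neonatal CD45+ cells and 6.43, 6.6 and 10.8 in MDSC. Clec4n (Dectin-2), a mannan receptor, was 4.98, 8.4 and 40.2 in tumor, 4.35, 9.11 and 27 in anemia and 21.7, 12.7 and 41.5 in neonatal CD45+ cells but 2.38, 2.31 and 3.37 in MDSC, which overlapped with the CD45- libraries (0.571 to 4.43). Clec4n was higher in CD45+ than in CD45- cells of tumor-bearing mice (2.38 ± 0.66 log2 units, SE, limma adjusted p = 0.0051) and neonates (2.52 ± 0.66, adjusted p = 0.0036), and did not pass in anemia (1.52 ± 0.66, adjusted p = 0.058).

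Clec1b and a pair of Clec2 genes had their own orders. Clec1b (CLEC-2), a receptor for podoplanin on platelets and some myeloid cells, was 31.2, 24.3 and 58.4 in neonatal, 3.5, 2.13 and 15.1 in tumor and 1.63, 2.27 and 2.42 in anemia CD45+ cells. Its CD45- libraries held 4.31, 3.09 and 4.13 in neonates and 0.396 to 2.33 otherwise, and MDSC held 2.65, 1.31 and 1.43. All neonatal CD45+ libraries lay above all libraries of the other groups. Clec2d, a ligand of an inhibitory NK cell receptor, was 4.8, 11.5 and 63.3 in tumor, 36.2, 44.6 and 55.8 in anemia and 2.02, 5.34 and 14 in neonatal CD45+ cells and 4.54, 9.43 and 14.3 in MDSC. Clec2i, of the same NK ligand family, was 8.25, 7.5 and 23.8 in tumor, 14.2, 17.2 and 17.8 in anemia and 3.26, 4.91 and 4.7 in neonatal CD45+ cells, 0 to 0.29 in CD45- cells and 6.33, 4.68 and 7.65 in MDSC. For Clec2i every neonatal CD45+ library lay below every tumor and anemia CD45+ library, and for Clec2d below every anemia library.

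Clec4g (LSECtin), a lectin of sinusoidal endothelium, was the 1 receptor lower in CD45+ than in CD45- cells. It stood at 0.704, 0.81 and 3.45 in neonatal CD45+ and 3.57, 1.88 and 10.5 in neonatal CD45- libraries, and at no more than 0.269 in any other library. The neonatal groups overlapped, and the difference of -1.16 ± 0.38 log2 units (SE, limma adjusted p = 0.016) did not pass without neonatal CD45+ replicate 1 or 2 or without neonatal CD45- replicate 3 (adjusted p = 0.0696 to 0.113). Endothelial and sinusoid genes (10 of 10 in the table, a list added after the data were seen) summed to 39.7, 30.1 and 58.8 in neonatal CD45-, 1.92 to 7.09 in the other CD45- and 100.4, 84.9 and 131 in neonatal CD45+ libraries, with Lyve1 and Emcn at 0 in all tumor CD45- and Emcn in all anemia CD45- libraries. Their part in the Clec4g levels was not tested. Clec14a, another endothelial lectin that was too low to be tested, had values of 0.14 and 0.252 in neonatal CD45+ and 0.742 and 0.365 in neonatal CD45- replicates 1 and 2, and was listed at 0 in 16 of the 21 libraries.

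Clec16a is named for a lectin fold but is known as an intracellular protein of autophagy. It was present in every library, with 2.41 to 3.91 in CD45-, 4.57 to 9.85 in CD45+ and 4.4 to 7.22 in MDSC libraries. Its CD45 difference passed in all 3 statuses (0.72, 1.19 and 0.82 log2 units, limma adjusted p = 0.014, 0.00037 and 0.0067). In tumor-bearing mice it turned to -0.06 after median-ratio scaling (adjusted p = 0.831) and to -0.42 after quantile normalization (0.138), in neonates to -0.29 after quantile normalization (0.316), and in tumor-bearing mice it missed the threshold without tumor CD45+ replicate 3 (adjusted p = 0.077).

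Transcripts of Toll-like receptors of the cell surface and of endosomes were both detected. Tlr1 and Tlr6 pair with Tlr2 on bacterial lipopeptides. Tlr2 was 21.4, 8.61 and 5.94 in tumor, 4.61, 5.74 and 14.2 in anemia and 7.98, 9.94 and 23.3 in neonatal CD45+ cells, 0.0794 to 1.11 in CD45- cells and 8.8, 11.3 and 14.9 in MDSC. Tlr1 was 6.25, 11.9 and 20.1 in tumor, 17.9, 29.6 and 40.3 in anemia and 4.63, 2.24 and 16.8 in neonatal CD45+ cells, 0.023 to 0.745 in CD45- cells and 7.12, 12.3 and 13.6 in MDSC. Tlr1 was thus highest in anemia, although tumor replicate 3 lay within the anemia range, whereas Tlr2 overlapped between all CD45+ groups and MDSC. Tlr1 rose by 4.37 ± 0.49 log2 units from CD45- to CD45+ cells in anemia (SE, limma adjusted p = 8.5e-07), with 15.26% of its windows shared with Tlr6. The endotoxin receptor Tlr4 was 1.87 to 3.29 in tumor and 0.804 to 6.68 in neonatal CD45+ cells and passed in these statuses (1.68 and 1.13 log2 units, adjusted p = 0.0013 and 0.018), and missed the threshold in anemia (0.73, adjusted p = 0.12). The neonatal call ended without neonatal CD45+ replicate 1 or neonatal CD45- replicate 1 or 2 (adjusted p = 0.0609 to 0.136).

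Endosomal receptors detect nucleic acids. Tlr7, a receptor for RNA, was 4.98, 3.59 and 13.7 in tumor, 6.92, 10.4 and 18.6 in anemia and 3.69, 3.43 and 12.9 in neonatal CD45+ cells, 0.00471 to 0.933 in CD45- cells and 8.6, 5.51 and 8.52 in MDSC, so all its CD45+ libraries lay above all CD45- libraries. Tlr13, a receptor for bacterial ribosomal RNA, was 2.33, 4.88 and 4.23 in tumor, 5.94, 0.525 and 6.76 in anemia and 2.26, 0.727 and 5.4 in neonatal CD45+ cells and 7.45, 6.18 and 8.11 in MDSC. Replicate 2 of the anemia and of the neonatal group lay within the CD45- range. Its neonatal call was at the threshold (1.19 log2 units, limma adjusted p = 0.0499) and ended without any of 14 of the 18 libraries (adjusted p = 0.0503 to 0.251). Tlr9, the receptor for unmethylated DNA, was 1.22, 0.618 and 2.14 in tumor, 1.97, 1.72 and 3.53 in anemia and 5.43, 3.26 and 1.74 in neonatal CD45+ cells, 0.0426 to 0.56 in CD45- cells and 0.023, 1.19 and 1.13 in MDSC. Tlr3 missed the threshold in tumor-bearing mice (0.81, adjusted p = 0.099) and Tlr8 in anemia (0.96, adjusted p = 0.068).

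**Figure D4:**
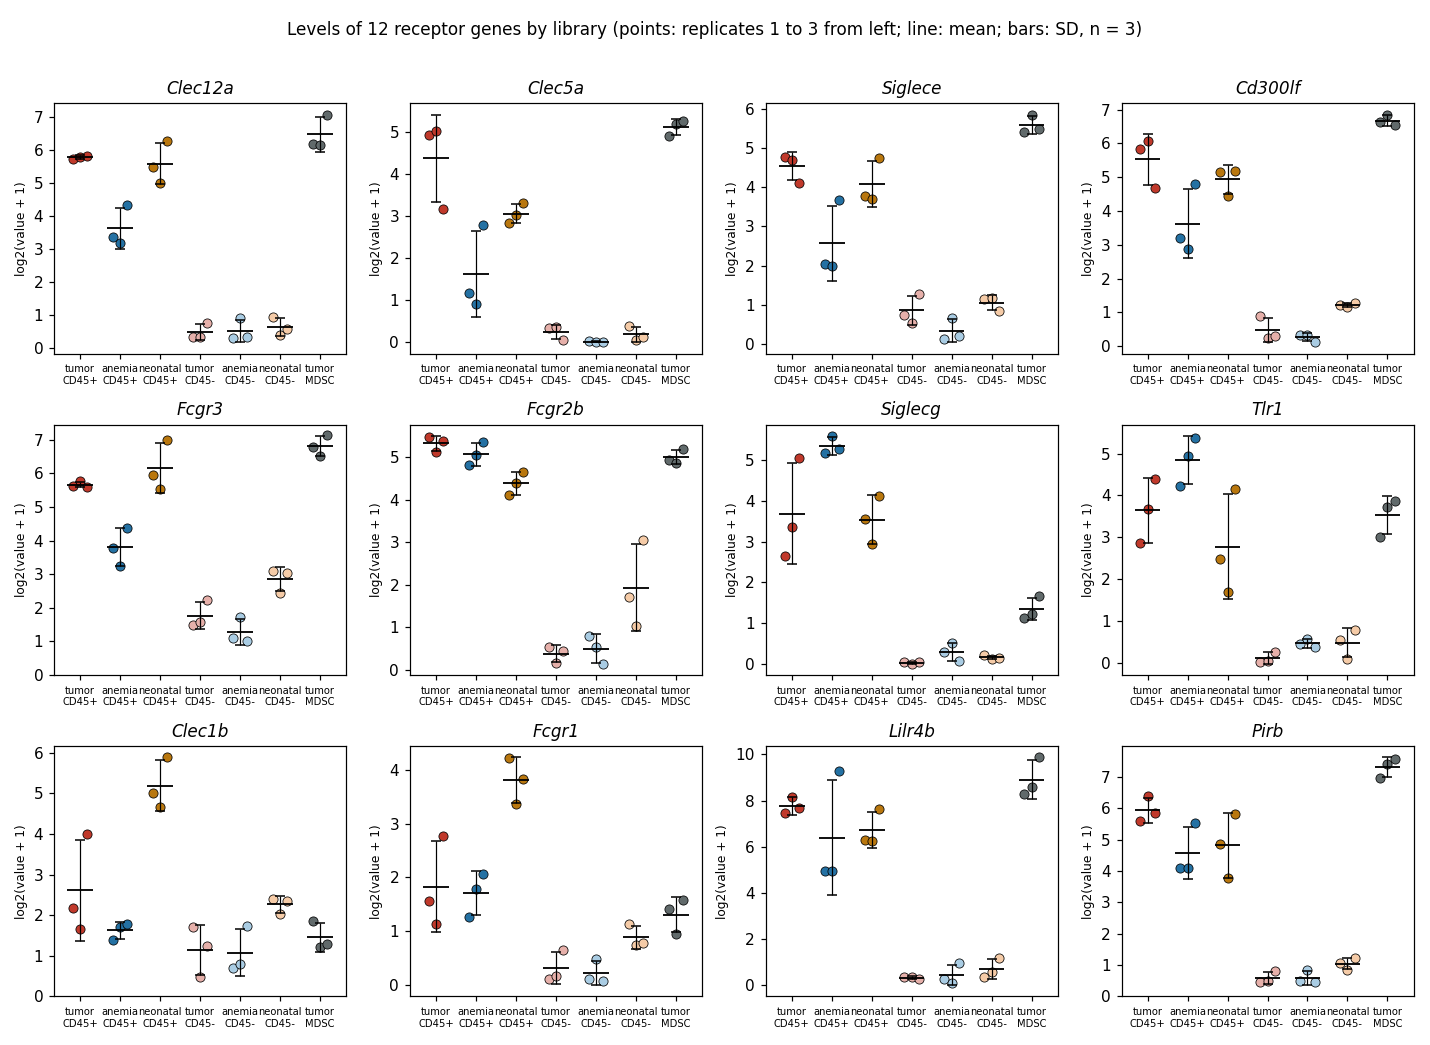
Level of 12 receptor genes as log2(value + 1) in each library, with the mean and SD (n = 3) of each of the 7 groups. Clec12a, Clec5a, Siglece, Cd300lf and Fcgr3 are lowest among CD45+ groups in anemia, Siglecg and Tlr1 are highest there, and Clec1b and Fcgr1 are highest in neonatal CD45+ cells.

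Between the CD45+ cells of different statuses, 20 of the 50 tested receptors passed in at least 1 of 3 comparisons and 30 in none. The comparisons share groups with each other and are therefore not independent. Tumor against anemia CD45+ cells gave 8 receptors higher and 4 lower, against 5.82% and 4.91% of all genes, that is 16% and 8% of the 50. Those higher in tumor-bearing mice were Clec5a (2.75 ± 0.45 log2 units, SE, limma adjusted p = 0.00073), Clec12a (2.17 ± 0.34, 0.00051), Clec4a2 (2.15 ± 0.38, 0.0014), Siglece (1.97 ± 0.40, 0.0038), Cd300lf (1.90), Fcgr3 (1.86), Clec4b2 (1.04) and Siglecf (0.75). Clec4b2 was 2.31, 1.32 and 0.807 in tumor and 0.0609, 0.0917 and 0.376 in anemia CD45+ libraries. Libraries of the first 4 and of Fcgr3 and Clec4b2 did not overlap, and those of Cd300lf and Siglecf did. In all, 7 receptors were higher and 2 lower without overlap, against 13.2% and 11.9% of all genes. Higher in anemia, with negative values since differences are tumor minus anemia, were Siglecg (-1.66 ± 0.43 log2 units, SE, adjusted p = 0.018), Cd300e (-1.72), Clec9a (-1.50) and Siglech (-1.30). Clec9a marks a subset of dendritic cells, where it senses dead cells, and was 0.359, 0.336 and 3.97 in tumor and 6.14, 4.99 and 3.78 in anemia CD45+ cells. None of the 9 tested Toll-like and 6 LILR or PIR receptors passed in the main limma fit, with 2 of each at an unadjusted p below 0.05. With the replicate number as a block, Pira2 (0.99 log2 units, limma adjusted p = 0.0352) and Pirb (1.36, 0.0365) passed as higher in tumor-bearing mice. This comparison was not taken as paired.

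Beside this comparison, 7 of 8 neutrophil and MDSC genes were higher in tumor than in anemia CD45+ cells and 5 of 6 B cell genes, 6 of 7 T and NK cell genes and 4 of 6 tested dendritic cell genes were lower. Of 6 tested mast cell, basophil and eosinophil genes, 3 were higher in tumor CD45+ cells. The sums were 37.3 to 102 in tumor and 143 to 221 in anemia for T and NK cell genes, and 21.8 to 67.2 and 86.6 to 127 for dendritic cell genes, and 25.5 to 114 and 4.71 to 22 for mast cell, basophil and eosinophil genes. Their part in the receptor differences was not tested. The counts rested on a few libraries. Here and below, receptor counts from alternative fits stand without the share of all genes called in the same fit. They show only how far the counts moved. Without anemia CD45+ replicate 3, 15 receptors were higher. Without tumor CD45+ replicate 3, 14 were lower, and without tumor CD45+ replicate 2, 5 were higher and 1 lower. Fewer were also lower without tumor CD45+ replicate 1 (1) and anemia CD45+ replicate 2 (2). The calls of Clec12a, Clec4a2, Clec4b2, Clec5a, Fcgr3, Siglece and Siglech held without any 1 library. The Siglecg call ended without replicate 1 or 2 of tumor CD45+ or replicate 2 of anemia CD45+ cells (adjusted p = 0.078 to 0.135), that of Cd300e without replicate 1 or 2 of tumor CD45+ or replicate 3 of anemia CD45+ cells (0.0672 to 0.107), and that of Cd300lf without replicate 1 or 2 of tumor CD45+ or replicate 2 of anemia CD45+ cells (0.0501 to 0.0564). Clec9a and Siglecf lost their calls without replicate 1 or 2 of anemia CD45+ or replicate 2 of tumor CD45+ cells, and Clec9a also without tumor CD45+ replicate 1 (adjusted p = 0.0822 to 0.174 for Clec9a and 0.146 to 0.198 for Siglecf).

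Tumor against neonatal CD45+ cells gave 1 receptor higher and 4 lower, against 2.20% and 4.41% of all genes. Clec2i was higher in tumor-bearing mice (1.25 ± 0.31 log2 units, SE, limma adjusted p = 0.018), a call that ended without neonatal CD45+ replicate 1 (adjusted p = 0.102). Clec1b (-2.58 ± 0.49, adjusted p = 0.0032), Fcgrt (-2.36 ± 0.55, 0.013), Fcgr1 (-1.98 ± 0.35, 0.0016) and Lilra5 (-1.76 ± 0.34, 0.0034) were higher in neonates, and their libraries did not overlap. In all, 3 receptors were higher and 7 lower without overlap, against 7.99% and 11.6% of all genes. The Fcgrt call ended without replicate 1 or 2 of tumor CD45+ or replicate 1 of neonatal CD45+ cells (adjusted p = 0.0773 to 0.09), and the other 3 were kept without any 1 library. With the replicate block, Clec4a1 (-1.54 log2 units, limma adjusted p = 0.018) and Clec4g (-1.20, 0.0425) also passed as lower, which makes 6. Beside them, 4 of 7 tissue macrophage genes, 6 of 9 tested endothelial and sinusoid genes, 5 of 6 tested mast cell, basophil and eosinophil genes and 3 of 6 megakaryocyte and platelet genes were also lower in tumor than in neonatal CD45+ cells. Sums of the last 3 lists were 17.2 to 65.2, 25.5 to 114 and 6.13 to 15.1 in tumor and 84.9 to 131, 746 to 1445 and 27.3 to 133 in neonatal CD45+ libraries, and their part in the receptor differences was not tested. Without tumor CD45+ replicate 3, whose tissue macrophage sum was within the neonatal range, 13 receptors were lower and 2 higher. The count of higher receptors was 3 without replicate 3 of anemia CD45+ or of neonatal CD45+ cells, 2 without neonatal CD45- replicate 3 and 0 without neonatal CD45+ replicate 1.

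Anemia against neonatal CD45+ cells gave 5 receptors higher and 12 lower, against 9.08% and 11.3% of all genes, so that 24% of the tested receptors were lower in anemia. Clec2d (2.79 ± 0.71 log2 units, SE, limma adjusted p = 0.0097), Tlr1 (2.07 ± 0.49, 0.0057), Siglecg (1.81 ± 0.43, 0.006), Clec2i (1.72 ± 0.31, 0.0006) and Siglech (0.90, 0.031) were higher in anemia. Clec1b (-3.56 ± 0.49, 6.1e-05), Fcgrt (-2.55 ± 0.55, 0.003), Fcgr3 (-2.35 ± 0.37, 0.00017) and Fcgr1 (-2.10 ± 0.35, 0.00034) led those lower in anemia. The remaining lower receptors were Clec12a (-1.97), Clec4a2 (-1.86), Siglece (-1.52), Siglecf (-1.45), Clec5a (-1.44), Lilra5 (-1.37), Cd300lf (-1.30) and Cd300lg (-0.83). Without overlap, 7 receptors were higher and 12 lower in anemia, against 18.5% and 22.2% of all genes. Of the Fc receptors, the activating Fcgr4 (-1.19 ± 0.46, adjusted p = 0.082) and the inhibitory Fcgr2b (0.68 ± 0.37, adjusted p = 0.22) did not pass. Beside these, 7 of 8 neutrophil and MDSC genes and 6 of 7 tissue macrophage genes were lower and 6 of 6 B cell genes higher in anemia. Lower in anemia were also 6 of 6 tested mast cell, basophil and eosinophil genes, 4 of 6 megakaryocyte and platelet genes, 7 of 9 tested endothelial and sinusoid genes and 4 of 7 monocyte and macrophage genes. Higher were also 6 of 7 T and NK cell genes, 3 of 6 tested dendritic cell genes and 1 of the monocyte and macrophage genes. Mast cell, basophil and eosinophil genes summed to 4.71 to 22 in anemia and 746 to 1445 in neonatal CD45+ libraries. Megakaryocyte and platelet genes summed to 13.5 to 27.2 and 27.3 to 133, endothelial and sinusoid genes to 47.7 to 60.1 and 84.9 to 131, and T and NK cell genes to 143 to 221 and 24.3 to 47.6. The part of these lists in the receptor differences was not tested.

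The calls of Clec12a, Clec1b, Clec2i, Clec4a2, Fcgr1, Fcgr3, Fcgrt, Siglecf, Siglecg and Tlr1 between anemia and neonatal CD45+ cells held without any 1 library. Clec2d and Cd300lg lost theirs without neonatal CD45+ replicate 1 (adjusted p = 0.0646 and 0.0559), and Lilra5 without anemia CD45+ replicate 1 (0.0505). Siglece did so without anemia CD45+ replicate 1 or 2 or neonatal CD45+ replicate 3 (0.0596 to 0.0721), Clec5a without anemia CD45+ replicate 1 or 2 or any 1 neonatal CD45+ replicate (0.0581 to 0.158), and Siglech without anemia or neonatal CD45+ replicate 1 or 2 (0.0717 to 0.142). Cd300lf did so without anemia CD45+ replicate 1 or 2, neonatal CD45+ replicate 1 or 3 or neonatal CD45- replicate 1 (0.0505 to 0.2). Without anemia CD45+ replicate 3 the count of lower receptors was 21, and without neonatal CD45+ replicate 1 that of higher receptors was 3.

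**Figure D5:**
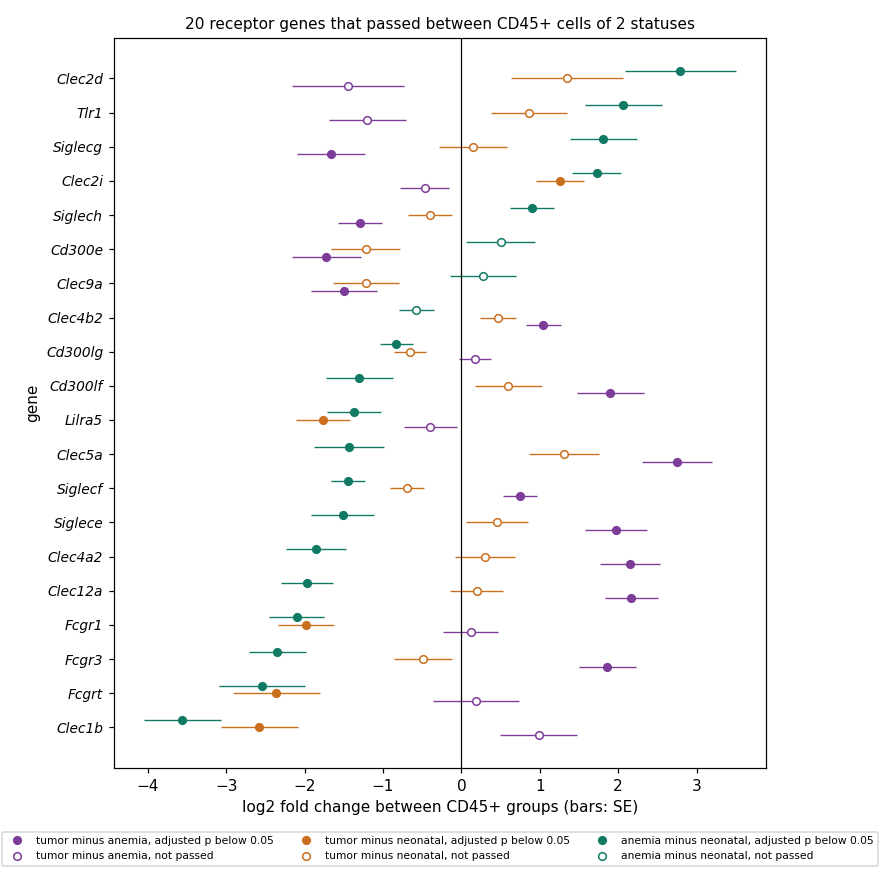
Log2 fold change between CD45+ groups for the 20 receptor genes that passed in at least 1 of the 3 status comparisons, with bars for the SE of the limma fit; filled points passed an adjusted p below 0.05. Clec5a, Clec12a, Clec4a2, Siglece and Fcgr3 are above 0 for tumor minus anemia and below 0 for anemia minus neonatal, and Clec1b reaches -3.56 for anemia minus neonatal.

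Whether the CD45 difference itself depended on status was tested with interaction terms, and few receptors passed. For Clec5a, Clec12a and Clec2i every CD45- library was under 1, so their terms largely repeat the differences between CD45+ groups. Those differences were 2.75 and 2.17 log2 units for Clec5a and Clec12a in tumor over anemia, and 1.72 for Clec2i in anemia over neonates. The CD45+ over CD45- difference was larger in tumor-bearing mice than in anemia for Clec5a (2.51 ± 0.64 log2 units, SE, limma adjusted p = 0.048) and Clec12a (2.20 ± 0.48, 0.021), where 1.80% of all genes passed in this direction and 0 receptors and 0.393% of all genes in the other. Against neonates, Fcgr2b had the larger difference in tumor-bearing mice (2.49 ± 0.52, 0.025), beside 0.509% of all genes, with 0 receptors and 0.572% of all genes the other way. At an unadjusted p below 0.05, 13 and 7 receptors passed in either direction in these 2 comparisons. Between anemia and neonates, Fcgr2b (2.12 ± 0.52, 0.02) and Clec2i (1.53 ± 0.44, 0.042) had the larger difference in anemia, beside 4.13% of all genes. Clec1b (-2.37 ± 0.70, 0.0499), Clec12a (-1.85 ± 0.48, 0.026) and Siglecf (-1.41 ± 0.31, 0.01) had the smaller difference in anemia, beside 2.80%. Marker lists passed in the same terms. Between tumor-bearing mice and anemia, 4 of 8 neutrophil and MDSC genes and 1 of 7 monocyte and macrophage genes had the larger difference in tumor-bearing mice. Between tumor-bearing mice and neonates, 4 of 6 tested mast cell, basophil and eosinophil genes, 2 of 7 tissue macrophage genes, 1 of 6 megakaryocyte and platelet genes and 1 of 9 tested endothelial and sinusoid genes had the smaller difference in tumor-bearing mice. Between anemia and neonates, 6 of 6 tested mast cell, basophil and eosinophil genes, 3 of 7 tissue macrophage genes and 2 of 8 neutrophil and MDSC genes had the smaller difference in anemia, and 4 of 7 T and NK cell genes and 1 of 6 B cell genes the larger one, with at most 1 gene of any other marker list in a direction. Of the mast cell, basophil and eosinophil genes, Mcpt8 and Epx were at 0 in all anemia CD45- and Fcer1a in all neonatal CD45- libraries. Their part in the receptor terms was not tested.

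Of these 8 receptor calls, that of Siglecf held without any 1 library, and Fcgr2b between anemia and neonates lost its call only without neonatal CD45+ replicate 1 (adjusted p = 0.062). The Clec12a term between tumor-bearing mice and anemia ended without replicate 1 or 2 of tumor CD45+, tumor CD45- or anemia CD45+ cells or replicate 2 of anemia CD45- cells (0.0532 to 0.0734), and that between anemia and neonates without replicate 1 or 2 of anemia CD45+, 2 of anemia CD45-, 1 or 3 of neonatal CD45+ or 2 or 3 of neonatal CD45- cells (0.05 to 0.0775). The Fcgr2b term between tumor-bearing mice and neonates ended without tumor CD45+ replicate 1 or 2, any 1 tumor CD45- replicate or neonatal CD45+ replicate 1 or 2 (0.0507 to 0.0974). Each of the terms of Clec5a, Clec2i and Clec1b ended without any of 16, 15 and 16 of the 18 single libraries (0.0523 to 0.15, 0.0519 to 0.121 and 0.0509 to 0.118). Between tumor-bearing mice and anemia the count was 9 higher and 1 lower without anemia CD45+ replicate 3 and 5 higher and 6 lower without tumor CD45+ replicate 3. Without the latter it was also 3 lower between tumor-bearing mice and neonates and 5 higher between anemia and neonates, and without anemia CD45+ replicate 3 it was 5 lower there, against 1 without neonatal CD45+ replicate 3. Without any 1 of the other 16 libraries, the terms between tumor-bearing mice and anemia gave 0 to 2 receptors. With the replicate number as a block, which the main fits leave out, the Clec5a term missed the threshold. Clec2d (2.66 log2 units, limma adjusted p = 0.0306) and Tlr1 (2.08, 0.0351) then also passed, with the larger difference in anemia than in neonates.

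Against MDSC, the tumor CD45+ cells were compared in a separate fit of 9 libraries, all of tumor-bearing mice, with 42 receptors among 10255 genes tested. Siglecg was the 1 receptor higher in CD45+ Ter119+CD71+ cells (2.35 ± 0.49 log2 units, SE, limma adjusted p = 0.019), where 5.42% of all genes were higher. Pirb (-1.38 ± 0.26, 0.012), Lilra6 (-1.27 ± 0.31, 0.035), Fcgr3 (-1.15 ± 0.26, 0.026) and Siglece (-1.06 ± 0.27, 0.046) were lower, beside 0.995% of all genes, which makes 9.52% of the tested receptors. Libraries of the 2 groups did not overlap for 14 receptors that were lower and 3 that were higher in CD45+ cells, against 8.87% and 24.4% of all genes. All 5 tested LILR and PIR receptors were among the 14. Beside this, the neutrophil and MDSC sum of the 3 tumor CD45+ libraries was below that of every MDSC library. Of the 8 genes in that sum, 1 passed as lower. The B cell sum was above, at 103 to 444 against 6.2 to 10.5, and 6 of 6 B cell genes passed as higher. Higher were also 4 of 6 tested T and NK cell genes and 4 of 5 erythroid genes. Of 5 tested dendritic cell and 5 tested tissue macrophage genes, 1 each was higher. The part of these lists in the receptor differences was not tested. The call of Siglecg ended without any 1 MDSC library (adjusted p = 0.0598 to 0.0714), that of Pirb without MDSC replicate 2 or 3 (0.0579 to 0.0623), and that of Fcgr3 without MDSC replicate 1 or 3 or any 1 tumor CD45+ library (0.0598 to 0.113). The Lilra6 call ended without MDSC replicate 2 or 3, tumor CD45+ replicate 1 or 2 or tumor CD45- replicate 1 or 2 (0.0524 to 0.136), and the Siglece call without any 1 library but tumor CD45- replicate 3 (0.0616 to 0.187). With the replicate block 3 receptors were higher, Siglecg, Clec4n (1.86 log2 units, limma adjusted p = 0.0284) and Fcgrt (2.31, 0.0277), and 4 lower, with Pira2 passing (-0.96, 0.0441) and Siglece not (0.0629). Median-ratio scaling gave 8 lower receptors and quantile normalization 7 lower and 0 higher.

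The partners of these receptors were examined with 4 lists. Of 21 ITAM and ITIM signalling genes, 19 were higher on the CD45+ side in each status, and 1, 0 and 0 were lower in tumor, anemia and neonatal samples, with medians of 4.43, 3.67 and 3.45 log2 units. That is 90.5% higher in each status, where 50.2%, 47.4% and 49.6% of all tested genes were higher and the medians over all genes were 0.75, 0.68 and 0.75. Plcg2, a phospholipase downstream of Syk, rose by 5.09 ± 0.23, 4.85 ± 0.23 and 4.69 ± 0.23 log2 units (SE, limma adjusted p = 3.4e-11, 8.6e-11 and 2.3e-10), and Syk by 4.85, 5.12 and 4.22. Of 29 tested co-receptors, adaptors and signalling genes of Toll-like receptors, 19, 22 and 21 were higher (65.5%, 75.9% and 72.4%) and 1, 2 and 1 lower in tumor, anemia and neonatal samples, with medians of 1.80, 1.73 and 1.68. Unc93b1, which carries endosomal Toll-like receptors out of the endoplasmic reticulum, rose by 4.92, 4.89 and 3.86 log2 units. Of 20 cytosolic and scavenger pattern receptors, 16, 14 and 16 were higher (80%, 70% and 80%) and 1 was lower in each status, and of 18 tested related receptors whose symbols fall outside the rule, 16 were higher (88.9%) and 0 lower in each.

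Card9, the adaptor that links Syk-coupled lectins to NF-kB, followed the order of Clec12a and Clec5a across statuses. It was 47, 49.8 and 17.7 in tumor, 3.87, 3.63 and 9.6 in anemia and 22.7, 19.2 and 22.6 in neonatal CD45+ cells and 67, 67.9 and 49.98 in MDSC. Card9 was higher in tumor than in anemia CD45+ cells (2.53 ± 0.35 log2 units, SE, limma adjusted p = 0.00017), with an interaction of 2.42 ± 0.50 (adjusted p = 0.016), and lower in anemia than in neonatal CD45+ cells (-1.86 ± 0.35, 0.00096). The ITAM chains Tyrobp (-1.51 ± 0.35, 0.005) and Fcer1g (-1.73 ± 0.48, 0.017) were also lower in anemia than in neonates. Of the 21 genes of that list, 1 (4.76%), Card9, was higher and 0 lower between tumor and anemia CD45+ cells, against 5.82% and 4.91% of all genes. Between tumor and neonatal cells 0 passed in limma (2 at an unadjusted p below 0.05). Between anemia and neonatal cells 2 were higher (9.52%) and 3 lower (14.3%), against 9.08% and 11.3% of all genes. The 3 lower were Card9, Tyrobp and Fcer1g. The list thus passed about as often as all genes did, and Card9 was picked after its values were seen. Marco, a scavenger receptor of splenic marginal zone macrophages, was 554, 578 and 959 in neonatal, 2.24, 1.1 and 2.83 in tumor and 3.58, 3.18 and 9.97 in anemia CD45+ cells, and differed by -7.83 ± 0.35 log2 units between tumor and neonatal cells (SE, limma adjusted p = 2.2e-10). Against MDSC, the B cell receptors Cd22 (4.05 ± 0.42, 0.001) and Cd180 (2.39 ± 0.43, 0.0094) were higher in tumor CD45+ cells, as was Siglecg.

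The 10 receptors too low to be tested among Ter119+CD71+ cells were Clec11a, Clec14a, Clec1a, Clec2g, Clec2h, Clec3b, Siglec15, Tlr5, Tlr11 and Tlr12. The highest value among them was 3.22, for Tlr11 in neonatal CD45+ replicate 3, and Tlr5, the flagellin receptor, reached 1.91 in MDSC replicate 2. For the comparison with MDSC, 8 more were too low (Cd300lg, Cd300lh, Clec10a, Clec4g, Clec9a, Lilra5, Siglech and Tlr3). A value in every library was listed for 35 of the 60 receptors.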

How the data were processed

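RNA of 21 libraries was analysed from 1 expression table with 3 libraries in each of 7 groups, taken from the sample titles and labels. The table as deposited by the authors holds log2 expression, and Bowtie 0.12.2 and mm8 are named in the submitters' processing notes. The quantifier, scale, annotation and any offset are not given in the sources used here, so depth is unknown and no counting interval can be given. Blank cells (23668, 7.90% of values) were taken as 0.

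Values were taken out of the log and tested as log2(value + 1), so fold changes of low genes are understated. Genes that reached 1 in 3 or more libraries were fitted with limma 3.58.1 (R 4.3.3, statmod 1.5.0, group means, trend and robust, two-sided). The 18 Ter119+CD71+ libraries gave the comparisons by CD45 and status and the interactions, and the 9 tumor libraries gave that with MDSC. Benjamini-Hochberg adjusted p-values over all tested genes were held to 0.05. The code was tested on simulated data: of genes changed by 2 log2 units between tumor CD45+ and CD45- cells, 79% were recovered among 10562 genes. The 8 repeated symbol rows were kept, and 22 symbols read as dates were left as they stand.

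The members and lists were chosen with earlier results of these data known, and the endothelial list after seeing the data. Values in every library were given for up to 4 receptors per family with the largest range of group means and up to 4 per direction and comparison with the largest fold change among those that passed without overlap, and Clec4e, Clec7a, Clec4n, Clec4g, Clec9a, Tlr9, Card9 and Marco were added after their values were seen. Alternatives were a pseudocount of 0.1, no filter, median-ratio scaling, quantile normalization, equal sums without haemoglobin genes, blanks as missing, a replicate block, all 21 libraries in one fit, and each library or replicate number left out. Same-numbered libraries deviated together between some groups (every r over 0.1, from 0.106 to 0.384), which was taken as pairing by replicate number. Between statuses it cannot be pairing by animal. These were the CD45+ and CD45- cells of each status, tumor and neonatal CD45+ cells, and tumor CD45+ cells and MDSC. Anemia CD45+ cells and MDSC also met this rule (r from 0.117 to 0.314), but were not compared. The other comparisons between groups were not taken as paired. The interactions are differences of the paired CD45 comparisons. The main fits held no block. The labels give only the number. The block spanned all libraries of a fit. Promoter windows and gene order came from RefSeq (GRCm38.p6), and shared 50-base windows from GENCODE transcripts. No protein sequence was used here, and 2 genes of the marker lists are not reported here.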

Additional observations from a re-analysis of the deposited data

Results flagged for a closer look

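The CD45+ over CD45- difference of 6 receptors passed an interaction term with status in limma, which is what set these results apart, and most of these calls ended without 1 library or another. Between tumor-bearing mice and anemia, 2 receptors passed with a larger difference in tumor-bearing mice, Clec5a (2.51 log2 units) and Clec12a (2.20). That is 4% of those tested, beside 1.80% of all genes. Between tumor-bearing mice and neonates, 1 receptor (2%) passed, Fcgr2b (2.49), with the larger difference in tumor-bearing mice, beside 0.509% of all genes. Between anemia and neonates, 2 receptors (4%) passed with a larger difference in anemia, Fcgr2b (2.12) and Clec2i (1.53), beside 4.13% of all genes. Another 3 (6%) passed with a smaller one, Clec1b (-2.37), Clec12a (-1.85) and Siglecf (-1.41), beside 2.80%. Larger differences in anemia than in neonates were thus no more common among receptors than among all genes. The neonatal CD45- libraries held more Fcgr2b than the other CD45- libraries, and the neonatal CD45+ libraries held less than the other CD45+ libraries. Clec12a appears in comparisons that share the anemia libraries. For Clec5a, Clec12a and Clec2i, under 1 in every CD45- library, the terms largely repeat the differences between CD45+ groups. Without any 1 library, 0 of 2 calls were kept between tumor-bearing mice and anemia, 0 of 1 between tumor-bearing mice and neonates, and 1 of 5 between anemia and neonates, that of Siglecf. The terms of Clec5a and Clec1b each ended without any of 16 of the 18 libraries, and that of Clec5a also with the replicate block. Mast cell, basophil and eosinophil genes (6 of 6 tested) had a smaller difference in anemia than in neonates beside Siglecf.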

How the results depend on the processing

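Clec16a (tumor-bearing mice and neonates), Clec4a4 (anemia) and Cd300lg (neonates) changed direction in the CD45 comparison under the scalings given in the report. None of the receptors named by the rule on range or fold changed direction where it had passed. Of the values under alternatives of those named by fold, 976 kept their side of the threshold and 187 lost it. Receptors named by range alone are not in these 2 counts. Counts that moved by more than 1.5 times were as follows, with the cause not tested. Quantile normalization gave 26 receptors higher in tumor CD45+ than CD45- cells and 25 in anemia, and 0 higher and 7 lower against MDSC. A pseudocount of 0.1 gave 1 lower for tumor against anemia, 0 higher for tumor against neonatal, 2 lower against MDSC, 0 for the tumor and anemia interaction, and 1 higher and 0 lower for the anemia and neonatal interaction. The tumor and anemia interaction gave 1 without the filter, with median-ratio scaling, quantile normalization, equal sums without haemoglobin genes, blanks as missing or the block. Blanks as missing gave 1 higher and 1 lower for the anemia and neonatal interaction. Against MDSC, median-ratio scaling gave 8 lower, equal sums without haemoglobin genes 2 lower, and all 21 libraries in one fit 2 higher.

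With libraries left out, the counts of higher receptors ran from 39 to 48, 40 to 46 and 39 to 48 for the CD45 comparisons in tumor-bearing mice, anemia and neonates, with 0 to 1 lower in neonates. Tumor against anemia gave 0 to 15 higher and 0 to 14 lower, tumor against neonatal 0 to 10 and 0 to 13, anemia against neonatal 1 to 10 and 4 to 21, and against MDSC 0 to 1 and 0 to 4. The interactions gave 0 to 13 higher and 0 to 7 lower (tumor and anemia), 0 to 8 and 0 to 4 (tumor and neonatal), and 0 to 7 and 0 to 10 (anemia and neonatal). These ranges include fits without a replicate number in all groups.

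In the paired comparisons the replicate block changed no call but those given in the report, with 3 receptors higher against MDSC. In the other comparisons between groups not every same-numbered pair correlated at over 0.1. Of all 63 same-numbered pairs, 35 did so (-0.171 to 0.411), and 12 of 21 libraries correlated best with their own number. There the block gave 10 higher for tumor against anemia, with Pira2 and Pirb passing, and 14 lower for anemia against neonatal, with Fcgr4 and Tlr8 passing. The interactions are differences of the paired CD45 comparisons. With the block, 1 receptor passed in the tumor and anemia interaction, where Clec5a missed the threshold (limma adjusted p = 0.0637). In the anemia and neonatal interaction 4 were higher. Since depth is unknown, low values carry an error that cannot be given.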
